A study of Bos taurus with 2 samples.

Results

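The 9 globin genes HBZ, HBE1, HBE2, HBE4, HBA, HBA1, HBM, HBB and HBQ1 were followed through single cells of bovine embryos. They were chosen by name and are 9 of the 17846 gene rows in the deposited table. Erythroid cells, the red cell lineage, were taken as cells with 500 or more unique molecular identifiers (UMIs, molecular tags by which a captured RNA is counted a single time) of HBZ. That rule took 28 of 4437 cells, 9 in replicate 1 and 19 in replicate 2, and all remaining cells, 1964 and 2445, are called other cells. HBG, a further beta-like globin gene of the table that was not on the list, is given where it bears on the others.

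The embryos were chimeras into which bovine embryonic stem cells had been incorporated, and were recovered by flushing at day 25. They were digested with papain and DNase I, strained, sorted by a gate not given in the sources used here, and profiled with a droplet 3' RNA method (10x Genomics v3.1). The samples form 1 group with replicates 1 and 2, so the comparisons are between classes of cells of the same replicate, and no conditions were compared. The labels do not say whether the replicates came from separate embryos, how many embryos were pooled, or which cells descended from the stem cells. The p-values thus hold for these samples only. The spread between the replicates may be technical, and the fits mostly pool it over genes.

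Hemoglobin joins a pair of alpha-like with a pair of beta-like chains. Vertebrates switch these genes during development: primitive red cells, made first in the yolk sac, use embryonic chains (zeta, epsilon), and later red cells use fetal and adult chains. In droplet methods RNA released from broken cells is captured with every cell, and globin RNA, being very abundant in red cells, is a common readout of this free RNA.

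In the gene order of RefSeq (assembly ARS-UCD2.0, used for names and neighbours only, since the counts were made on bosTau9), the alpha-like genes stand as HBZ, HBM, HBA, HBA1 and HBQ1. The beta-like genes stand as HBE1, HBE4, HBB, HBE2 and HBG. All 9 members were matched by symbol. HBA and HBA1 are near-identical adult alpha genes, and the epsilon genes are close relatives, so their counts are uncertain where counting could drop or split shared reads.

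Replicate 1 held 1973 cells with 11182089 UMIs and replicate 2 held 2464 cells with 15427708 UMIs, with medians of 4889 and 5601 UMIs per cell. Detected genes ran from 201 to 3999 per cell and mitochondrial UMIs reached 4.98% at most, so cells with more detected genes are not analysed here. The richest erythroid cell had 3951 detected genes and 2 erythroid cells had over 3900. The replicates shared 6 cell barcodes, none of them of an erythroid cell.

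The threshold fell in a gap. The lowest erythroid cell had 1039 HBZ UMIs and the highest other cell had 352. In replicate 1 the 9 erythroid cells had between 1039 and 11138 HBZ UMIs (median 7955), and in replicate 2 the 19 cells had between 1230 and 16637 (median 6215). HBZ was used to pick the cells, so its difference between the classes is given without a test.

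**Figure D1:**
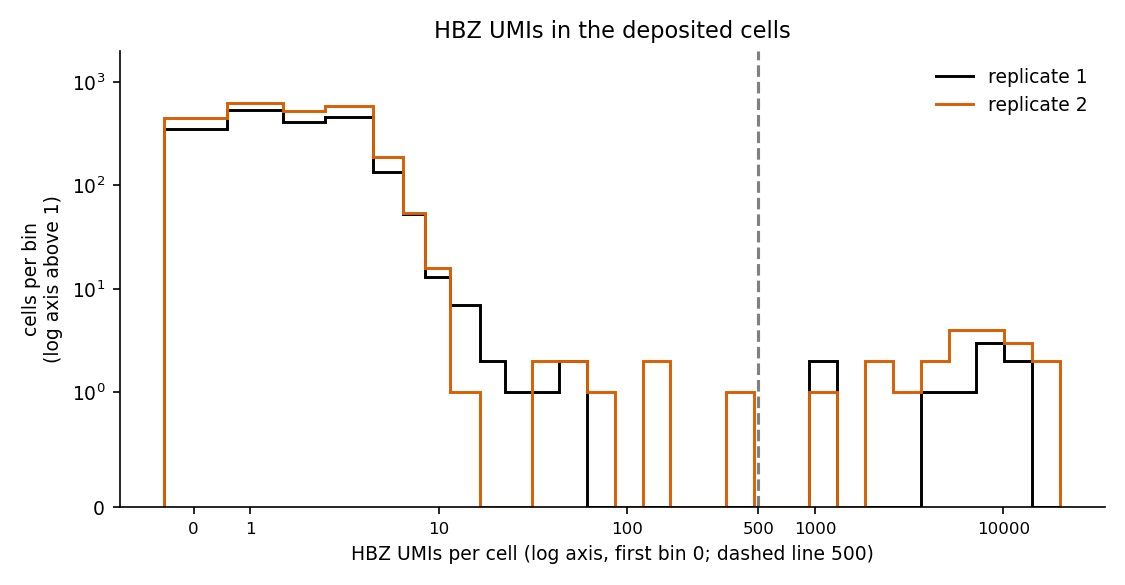
HBZ UMIs per cell (x axis, log scale with a first bin for 0) against the number of cells per bin (y axis, log scale above 1) in replicates 1 and 2. The dashed line marks 500 UMIs. The erythroid cells start at 1039, and the highest cell below the line has 352.

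The label was checked on 11 non-globin erythroid markers. Their summed level was 2234 and 2922 CPM (UMIs per 1000000 UMIs of the class) in erythroid cells of replicates 1 and 2, against 6.94 and 9.20 CPM in other cells. Each erythroid cell had UMIs of 5 to 10 of these markers. Of the 9 lists of markers of other cell types, 8 summed to less in erythroid than in other cells in both replicates, though not all of these differences could be resolved. The exception was megakaryocytes, whose 3 markers in the table summed to 8.83 and 24.2 CPM in erythroid cells, with 2 of them at 0, against 29.5 and 7.12 CPM in other cells. Of the 323 UMIs of these markers in other cells of replicate 1, 203 were PF4 UMIs of 1 cell. The 1 maternal endometrial epithelium marker had no UMI in erythroid cells, against 0.183 and 0.403 CPM in other cells. A count of 3 UMIs in erythroid cells would be 13.2 and 5.59 CPM, so a lower level could not be resolved for this list. The 6 endothelium markers had only 1 and 3 UMIs in erythroid cells. Their level in other cells of replicate 1 also lay below the 3-UMI limit. The 6 neural progenitor markers summed to 53.0 and 39.1 CPM in erythroid cells, against 1238 and 1247 CPM in other cells. The 6 mesenchyme markers summed to 26.5 and 33.5 CPM in erythroid cells, against 1319 and 2178 CPM in other cells. The 7 markers of yolk sac or hepatic endoderm summed to 137 and 391 CPM in erythroid cells, with 6 and 5 of them at 0, against 711 and 1269 CPM in other cells. The erythroid cells were also deeper, with medians of 27366 and 26933 UMIs, against 4876.5 and 5542 UMIs in other cells.

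Globins made up 48.7% of all UMIs of the erythroid cells in replicate 1 (110233 of 226458) and 50.6% in replicate 2 (271697 of 536875). In other cells they made up 0.0745% (8162 UMIs; 95% exact binomial interval 0.0729 to 0.0761%) and 0.0751% (11190 UMIs; 0.0738 to 0.0766%). Per cell these were 12248 and 14299.8 globin UMIs in erythroid cells, against 4.16 and 4.58 in other cells. All intervals on UMIs cover counting error only.

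Embryonic genes made up nearly all counted globin UMIs of both classes. HBZ, the zeta chain and the embryonic alpha-like gene, gave 54.9% and 53.3% of the globin UMIs of erythroid cells in replicates 1 and 2, against 54.2% and 54.3% in other cells. Its level was 268531 ± 1537 CPM in erythroid cells and 406 ± 3.04 CPM in other cells (SD, n = 2). HBE1, an epsilon gene, gave 32.5% and 28.9% in erythroid cells, against 29.5% and 27.6% in other cells. HBE4, a further epsilon gene, gave 12.1% and 17.1% in erythroid cells, against 14.4% and 16.4% in other cells. HBE4 thus differed more between the replicates' erythroid cells than HBZ did.

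HBE2, the epsilon gene that lies beyond HBB in the cluster, was rare. It gave 0.191% (211 UMIs) and 0.449% (1219 UMIs) of the globin UMIs in erythroid cells, against 1.07% and 0.777% (87 UMIs in each replicate) in other cells. Both erythroid shares lay below both shares of other cells. HBM, the mu gene, an alpha-like gene transcribed in human red cell precursors, gave 0.216% and 0.184% in erythroid cells, against 0.184% and 0.107% in other cells.

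HBQ1, the theta gene, whose part in hemoglobin is not known, had unequal shares. It gave 0.0109% and 0.00810% of the globin UMIs in erythroid cells (12 and 22 UMIs), against 0.625% and 0.679% in other cells (51 and 76 UMIs). Its share in other cells was 57.4 and 83.9 times that in erythroid cells.

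The adult genes were all but undetected. HBA had 0 and 3 UMIs and HBA1 had 2 and 5 UMIs in erythroid cells. In other cells HBA had no UMI in either replicate, and HBA1 had 0 and 2 UMIs. HBA and HBA1 are near-identical, and counting could drop their shared reads, so these low counts do not show that they were silent. HBB, the adult beta gene, had no UMI in the erythroid cells. Taking 3 UMIs of each replicate as the limit that a count of 0 allows, its share there was up to 0.00272% and 0.00110% of the globin UMIs in replicates 1 and 2. In other cells HBB had 4 and 13 UMIs, or 0.0490% and 0.116% of the globin UMIs. Its share was thus at least 18-fold and 105-fold lower in erythroid cells against that limit. These folds reflect the far larger globin total of the erythroid cells. In CPM the same limit was 13.2 and 5.59 there, above the 0.365 and 0.873 CPM of HBB in other cells. Whether the level of HBB was lower in erythroid cells thus could not be resolved. HBG, named for the fetal gamma chain, had 0 and 652 UMIs in erythroid cells, against 4 and 22 UMIs in other cells.

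**Figure D2:**
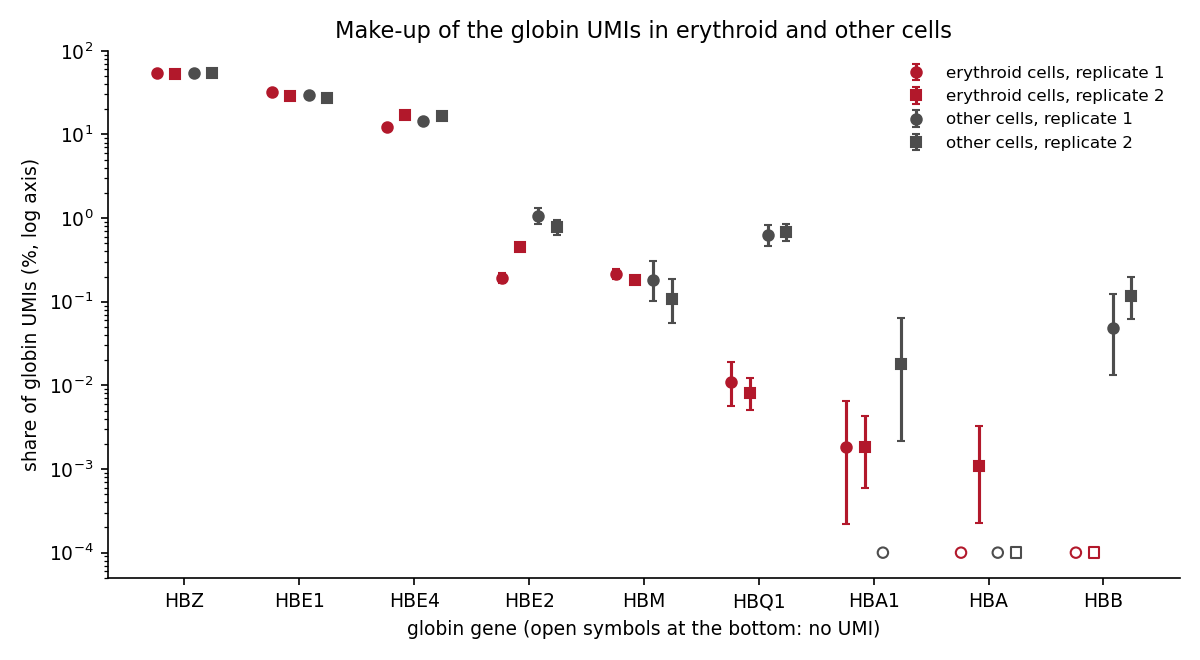
Share of globin UMIs (y axis, percent, log scale) of the 9 globin genes in erythroid (red) and other (grey) cells of replicates 1 (circles) and 2 (squares). Bars are 95% exact binomial intervals and open symbols at the bottom mark no UMI. HBZ, HBE1 and HBE4 lie close together in both classes, while HBQ1 gives 0.0109% and 0.00810% in erythroid cells and 0.625% and 0.679% in other cells.

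Alpha-like and beta-like RNA were near balance in sum. Alpha-like genes gave 55.2% and 53.5% of the globin UMIs of erythroid cells, against 55.0% and 55.1% in other cells. Since HBZ picked the cells and makes up almost all alpha-like UMIs, this is a description. UMIs count molecules at the 3' end, so no scaling for transcript length was applied.

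Levels were compared on the UMIs summed per class and replicate, with replicate as a block (edgeR's quasi-likelihood test, Benjamini-Hochberg adjustment over 13208 genes). Of the 8 members other than HBZ, 5 passed the filter on low counts, and 3 of the 5 were higher in erythroid cells (HBM, HBE1 and HBQ1). Over all genes tested 12.0% were higher, 20.7% were lower and 32.7% changed in either direction. HBA, HBA1 and HBB did not pass the filter. A member high in erythroid cells alone can pass it, so the count does not stand for all members. With no filter HBA1 and HBA were called as well (edgeR adjusted p = 0.00011 and 0.00989), on 7 and 3 UMIs in erythroid cells, and HBB was not (adjusted p = 0.917).

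HBM was higher in erythroid cells by 11.42 on the log2 scale (SE 0.21, 95% interval 11.02 to 11.82), with 990.2 ± 85.9 CPM in erythroid cells and 1.09 ± 0.398 CPM in other cells (SD, n = 2). The HBM difference was 11.87 without replicate 1 and 10.92 without replicate 2, both outside that interval. HBE1 was higher by 11.04 (SE 0.23, 95% interval 8.15 to 13.94, edgeR adjusted p = 0.0417), with 152422 ± 8492 CPM in erythroid cells and 213 ± 8.97 CPM in other cells. HBQ1 was higher by 4.80 (SE 0.59, edgeR adjusted p = 1.07e-14), with 47.0 ± 8.49 CPM in erythroid cells and 4.88 ± 0.317 CPM in other cells. In CPM of each replicate HBQ1 was 11.4 and 8.03 times as high in erythroid as in other cells, against 721 and 707 times for HBE1.

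HBE4 did not pass the test, with 72817 ± 19747 CPM in erythroid cells and 115 ± 11.6 CPM in other cells (log2 10.84, SE 0.52, 95% interval 4.29 to 17.39, edgeR adjusted p = 0.0822). HBE2 did not pass either, with 1601 ± 947 CPM in erythroid cells and 6.89 ± 1.48 CPM in other cells (log2 9.37, SE 1.27, edgeR adjusted p = 0.186). The intervals of HBE1, HBE4 and HBE2 rest on 1 residual degree of freedom. The HBM and HBQ1 tests rest on a spread pooled over genes, so their smaller errors do not mean closer replicates. HBE1 lost its call when the other cells with 50 or more HBZ UMIs were left out (11.15, adjusted p = 0.0594). Its edgeR adjusted p was 5.24e-38 with 200 HBZ UMIs as threshold and 4.8e-13 with cells chosen by 4 or more markers, both at 11.04. The p-value of HBE1 thus hangs on the cells taken, while its log2 difference hardly moves. HBE4 gained one when the pair of cells with most HBG UMIs was left out (10.62, adjusted p = 0.0325), and HBE2 without the cell with most HBE2 UMIs (9.03, adjusted p = 0.0109). All 5 members were called by DESeq2 and with library totals in place of TMM scaling, which lowers each log2 difference by about the 1.56 that separates the TMM factors of the classes. In CPM of each replicate, HBE4 was 549.7 and 703 times and HBE2 was 117 and 389 times as high in erythroid as in other cells.

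The make-up of globin RNA was then compared directly, by the same test with each sum scaled to its UMIs of the 8 globins other than HBZ. On this scale 2 of the 5 tested members differed, HBQ1 and HBE2. Over all genes 99.8% were lower in erythroid cells on it, since genes other than globins are low relative to globin RNA there by construction. HBQ1 was lower in erythroid cells (log2 -6.14, SE 0.63, 95% interval -7.37 to -4.91, edgeR adjusted p = 1.18e-22). HBE2 was lower as well (log2 -1.62, SE 0.45, 95% interval -2.51 to -0.74, edgeR adjusted p = 0.000327). The HBE2 difference was -0.83 without replicate 1 and -2.45 without replicate 2, and DESeq2 did not call it (-1.64, adjusted p = 0.072). With no filter HBB was called too (edgeR adjusted p = 1.01e-08), being lower in erythroid cells, where it had no UMI, while HBA and HBA1 were not. With no filter 97.1% of all genes were lower on this scale, so the HBB call sets it apart from few genes. It rests on 17 UMIs in 5 other cells.

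For the major genes and HBM the test bounds the difference and does not show that the profiles are alike. The log2 difference, erythroid over other cells, was 0.10 for HBE1 (95% interval -0.34 to 0.55, edgeR adjusted p = 0.656). For HBE4 it was -0.10 (-0.53 to 0.34, edgeR adjusted p = 0.661). For HBM it was 0.49 (-0.65 to 1.63, edgeR adjusted p = 0.397). Within a replicate the sign of the HBE4 difference varied: the erythroid share minus the other share was -2.28 percentage points in replicate 1 and 0.713 in replicate 2.

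Scaling the erythroid profile of each replicate to the HBZ UMIs of its other cells gives the UMIs that a source of that profile would leave there. The profile is that of the 9 and 19 captured erythroid cells, which differ among themselves. Cells that released RNA need not share it, and the intervals below leave this out. For HBE1 the other cells had 2408 and 3084 UMIs, against 2621 and 3300.2 so scaled. For HBE4 they had 1173 and 1839, against 974 and 1956. For HBM they had 15 and 12, against 17.4 and 20.9. These 3 genes had 0.573 to 1.20 times the scaled value. The exact Poisson intervals of the HBE1 counts lay below it in replicates 1 and 2 (2313 to 2506 and 2976 to 3195). Those of HBE4 lay above it in replicate 1 (1107 to 1242) and below it in replicate 2 (1756 to 1925). Only the intervals of HBM held it (8.4 to 24.7 and 6.2 to 21). HBE1 and HBE4 thus departed from the scaled values beyond counting error, and the cause was not tested.

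HBQ1 had 51 and 76 UMIs in other cells, against 0.877 and 0.924 scaled from the erythroid cells of replicates 1 and 2, a ratio of 58.2 and 82.3. HBE2 had 87 in each replicate, against 15.4 and 51.2, a ratio of 5.64 and 1.70. HBG of replicate 2 had 22 UMIs in other cells, against 27.4. In replicate 1, HBG had 4 UMIs in other cells while its erythroid cells had none. The source of the HBQ1 and HBE2 UMIs beyond the scaled values was not tested.

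HBQ1 UMIs were spread over many other cells. The 127 HBQ1 UMIs of both replicates lay in 115 other cells, 105 of which had 1 UMI, and the highest had 3. The 174 HBE2 UMIs lay in 156 cells and the 26 HBG UMIs in 26 cells. HBM had 27 UMIs in 25 cells. In erythroid cells 21 of 28 had an HBQ1 UMI, at most 3 each, beside at least 1039 HBZ UMIs.

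HBB was concentrated in few cells. Its 17 UMIs lay in 5 other cells, and 3 of those held 15 UMIs (7, 5 and 3). These cells were looked at after their values were seen. Each of the 3 also had UMIs of PF4, a platelet chemokine and megakaryocyte marker (3, 4 and 203 UMIs). The cell with 7 HBB UMIs had no UMI of ITGA2B or GP9, genes of platelet surface receptors, and fell in the neural progenitor gate. The cell with 5 HBB UMIs had 0 of ITGA2B and 1 of GP9, among 621 UMIs and 201 detected genes. It fell in the megakaryocyte gate, which is set by PF4, ITGA2B and GP9 themselves. PF4 was found in 42 of 4409 other cells (0.953%) and in no erythroid cell. The 3 cells had 1, 1 and 0 HBZ UMIs, and no HBA or HBA1 UMI. The cell with 203 PF4 UMIs came from replicate 1, also had 15 UMIs of ITGA2B and 8 of GP9, and fell in the megakaryocyte gate. The origin of these cells was not tested.

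The erythroid cells differed among themselves in which epsilon gene they used. HBE4 made up 0.533% to 61.7% of the HBE1 and HBE4 UMIs of a cell in replicate 1 (median 23.9%, 9 cells) and 10.9% to 82.4% in replicate 2 (median 32.7%, 19 cells). At one end a cell of replicate 1 had 5407 HBE1 UMIs and 29 HBE4 UMIs. At the other end a cell of replicate 2 had 1347 HBE1 UMIs and 6310 HBE4 UMIs. The other cells lay between these.

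HBG lay at the HBE4-rich end. Of the 652 HBG UMIs of replicate 2, 643 were in 2 cells, which had 449 and 194. HBE4 made up 58.9% and 82.4% of the HBE1 and HBE4 UMIs of these cells. The next cell had 5 HBG UMIs, and the 9 cells of replicate 1 had none. Replicate 1 held cells of similar HBE4 use (61.1% and 61.7%) without an HBG UMI.

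**Figure D3:**
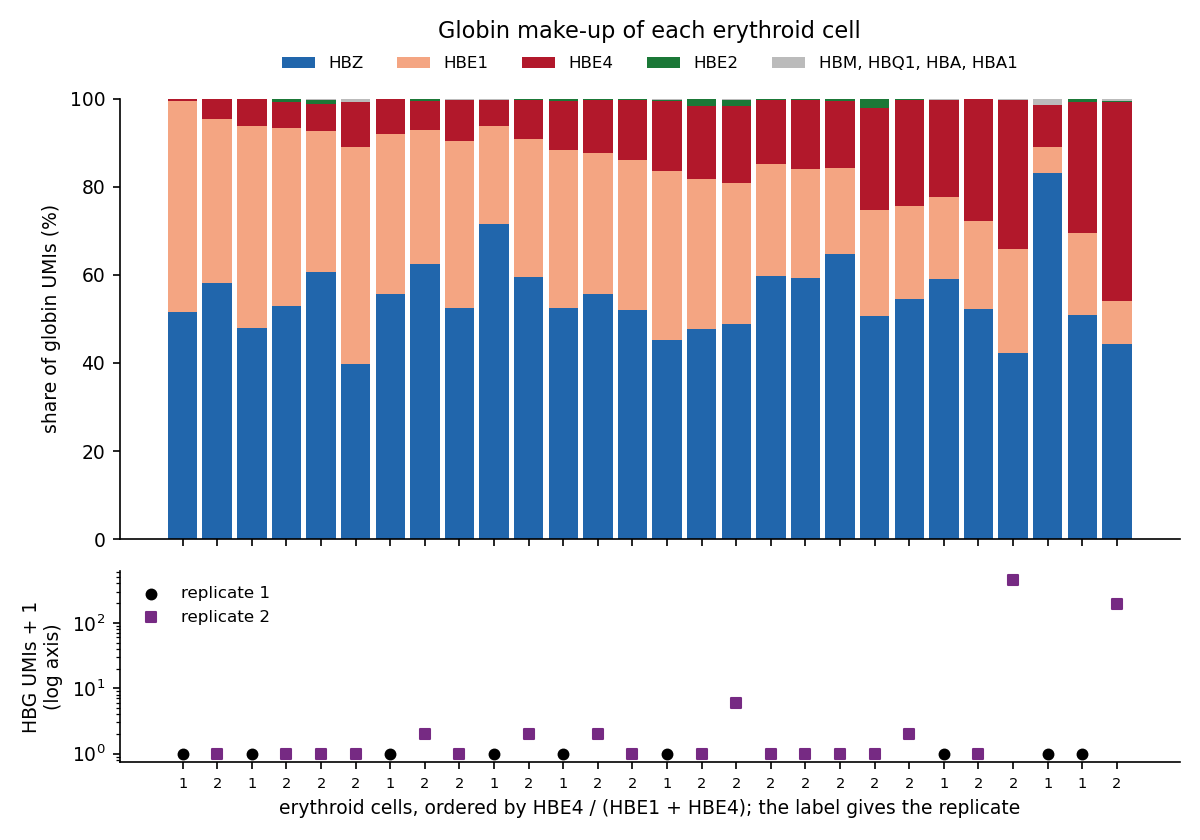
Share of globin UMIs (y axis of the upper panel, percent) in each of the 28 erythroid cells, ordered along the x axis by the HBE4 part of the HBE1 and HBE4 UMIs, with the replicate as label. The lower panel gives HBG UMIs plus 1 (log scale), and 2 cells of replicate 2 at the HBE4-rich end stand out with 449 and 194 HBG UMIs.

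Across the 28 cells the HBE4 part was lower where the globin share of a cell's UMIs was higher (Spearman's rho -0.60, and -0.47 and -0.60 within replicates 1 and 2). With the ribosomal protein share rho was 0.44 (0.22 and 0.42 within replicates). With the mitochondrial share it was -0.36, and with total UMIs 0.17. Cells of a replicate share a library, and shares of 1 cell are bound to each other, so these values are descriptions with no test. Globins took 26.9% to 59.3% of the UMIs of an erythroid cell in replicate 1 and 37.4% to 61.0% in replicate 2.

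The rare globins were uneven between cells. In replicate 1, 190 of the 211 HBE2 UMIs were in 2 cells (98 and 92), and in replicate 2, 473 of 1219 were in 1 cell. All 28 erythroid cells had HBM UMIs, from 3 to 132 in replicate 1 and from 2 to 80 in replicate 2. The cell with 132 HBM UMIs had 7955 HBZ, 578 HBE1 and 909 HBE4 UMIs, so that 84.5% of its globin UMIs were alpha-like. It also had the highest ribosomal protein share of the erythroid cells, 30.0%. The alpha-like share of a cell ran from 45.5% to 84.5% in replicate 1 (median 52.5%) and from 40.5% to 64.8% in replicate 2 (median 53.0%).

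Between the classes lay 7 cells with 50 to 352 HBZ UMIs, 1 in replicate 1 and 6 in replicate 2. The highest, with 352 HBZ, 64 HBE1 and 141 HBE4 UMIs among 3500 UMIs, had UMIs of 5 erythroid markers. The other 6 had 50 to 139 HBZ UMIs and between 0 and 2 erythroid markers. They count as other cells here, and leaving them out lowered the globin share of UMIs in other cells to 0.0697% on average over replicates, against 0.0748% with them.

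Globin UMIs of other cells were low. The median was 2 HBZ UMIs per cell in both replicates, and 1946 of 1964 and 2430 of 2445 cells had fewer than 10. Among other cells with fewer than 20 HBZ UMIs the variance of HBZ was 1.82 and 1.63 times its mean, where counting error alone gives a ratio of 1. No HBZ UMI was found in 353 and 451 other cells.

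Deeper cells held more globin UMIs, but less than in proportion. In 4 sets of about equal size, ordered from the lowest to the highest total UMIs, globin UMIs per cell were 2.82, 3.61, 4.15 and 5.36 in replicate 1, while the median total was 1606, 3864.5, 6282 and 9962.5 UMIs. In replicate 2 they were 2.99, 3.03, 4.01 and 5.84, at 1770.5, 4072, 7122 and 11020 UMIs. Globin CPM accordingly ran down the sets, with 1764, 949.6, 654 and 507 in replicate 1 and 1748, 728, 559 and 514 in replicate 2. The HBZ share of globin UMIs stayed between 51.3% and 56.1% over the 4 sets of both replicates.

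**Figure D4:**
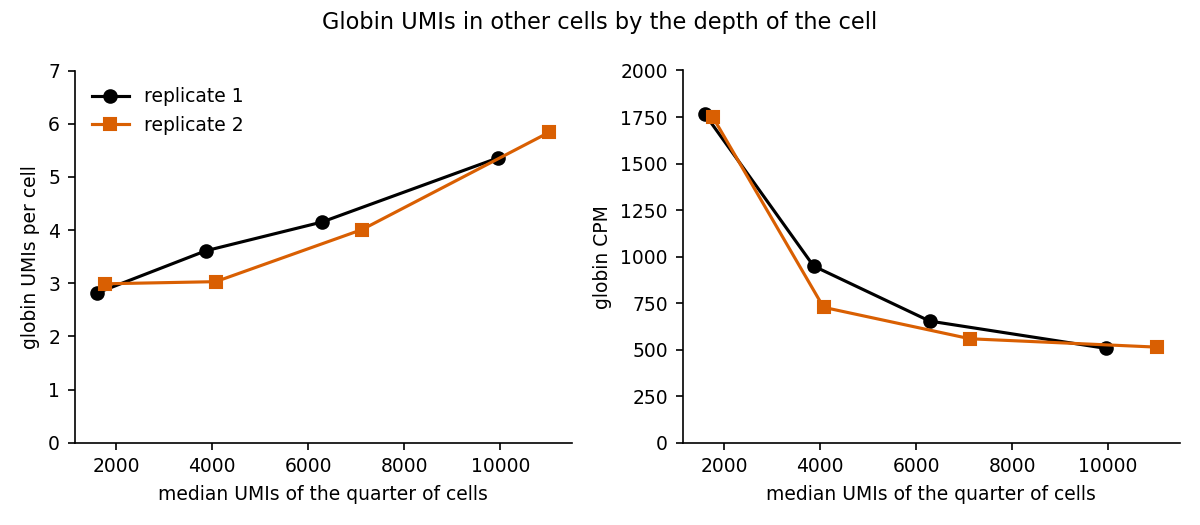
Globin UMIs per cell (left y axis) and globin CPM (right y axis) of other cells with fewer than 20 HBZ UMIs, against the median total UMIs of 4 sets of cells ordered by depth, in replicates 1 (black) and 2 (orange). UMIs per cell go up with depth, to 5.36 and 5.84, while CPM go down to 507 and 514.

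Other cells were also sorted into gates, by UMIs of 2 or more markers of a list and of more of its markers than of any other list. Gates are ranges of markers and not cell types. In the neural progenitor gate (922 and 1160 cells) globins reached 729.6 and 677 CPM in replicates 1 and 2. In the neuron gate (400 and 421 cells) they reached 662 and 640 CPM, and in the mesenchyme gate (83 and 170 cells) 629.7 and 488 CPM. Cells in no gate (537 and 655), which were shallower, with median totals of 3036 and 3273 UMIs, had 938 and 966 CPM. Counted per cell, these 4 sets had between 3.67 and 4.87 globin UMIs. The mesenchyme gate was the highest of the 4 in replicate 1 (4.87) and the lowest in replicate 2 (3.75).

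The HBZ share was close in the gates, with 53.8% and 53.9% in the neural progenitor gate, 54.4% and 53.0% in the neuron gate and 56.9% and 57.5% in the mesenchyme gate. The 95% exact binomial intervals of these shares overlap within each replicate. HBQ1 had 5.18 and 6.0 CPM in the neural progenitor gate (29 and 46 UMIs), 2.89 and 3.22 CPM in the neuron gate (7 and 9 UMIs) and 4.68 and 0.765 CPM in the mesenchyme gate (3 and 1 UMIs). The gates were not tested against each other.

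Other cells were split at a ribosomal protein share of 10% of UMIs, since the cells of these libraries differ widely in it. Cells under 10% (1329 and 1455) had 3.96 and 3.80 globin UMIs per cell, against 4.57 and 5.72 in cells at 10% or more (635 and 990). In CPM the order was the reverse, with 878 and 907 under 10%, against 584 and 644 at 10% or more. Median depth was 4145 and 3844 UMIs under 10%, against 8351 and 9352 at 10% or more.

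With TMM scaling 1 of 5 globins tested passed. Of all 13560 genes 74.4% passed, 37.6% being lower in the cells under 10%. HBZ was lower in the cells under 10% (log2 -0.20, SE 0.06, edgeR adjusted p = 0.00434). HBE1 (0.06, edgeR adjusted p = 0.407) and HBE4 (-0.10, edgeR adjusted p = 0.273) did not pass. Neither did HBE2 (0.06) or HBQ1 (-0.18). With library totals the direction turned: HBZ was higher in the cells under 10% by 0.45 (adjusted p = 6.8e-09) and 4 of the 5 were called. With that scaling 57.6% of all genes were higher in the cells under 10% and 23.8% were lower, so the count of globins is near that of all genes. It moves the median of all genes to 0.66, against 0.01 with TMM. The direction of the globins in this contrast thus depends on the scaling.

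Beside the globins, genes of red cell development were taken as a list of 50, of which 45 were tested. In erythroid cells 37 were higher, 2 were lower (GATA2 and XPO7) and 6 did not pass, with a median log2 difference of 4.94, against -0.82 over all genes tested. With library totals 34 were higher, 3 were lower and 8 did not pass, while 3.16% of all genes were higher and 62.5% lower. The list was chosen with earlier results of these data known and is a description of what accompanies the globins.

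Among the genes of the list with the largest differences, KEL, ICAM4 and RHAG carry or accompany blood group antigens of the red cell surface. KEL had 66.6 ± 0.578 CPM in erythroid cells and 0.0672 ± 0.0950 CPM in other cells (SD, n = 2; log2 11.06, SE 0.92, edgeR adjusted p = 1.94e-31). RHAG (log2 9.76) and ICAM4 (9.86) had 36.5 and 48.7 CPM in erythroid cells, against 0.113 and 0.134 CPM in other cells. SLC4A1, the band 3 anion exchanger, was higher by 9.96. In other cells of replicates 1 and 2, KEL had 0 and 2 UMIs, RHAG 1 and 2, ICAM4 0 and 4 and SLC4A1 1 and 3. The sizes of these differences thus hang on few molecules. Without replicate 2 the differences of KEL and ICAM4 were 12.87 and 12.14, each on 0 UMIs in other cells.

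KLF1, the red cell factor that drives beta-like globin genes, had 171 ± 51.9 CPM in erythroid cells and 0.259 ± 0.108 CPM in other cells (SD, n = 2; log2 10.72, SE 0.45, edgeR adjusted p = 2.72e-122). ALAS2, the first enzyme of heme synthesis in red cells, was higher by 10.25, and HEMGN, a nuclear protein of blood progenitors, by 10.60. Without replicate 2 the differences of KLF1 and HEMGN were 11.34 and 12.31, and without replicate 1 that of HEMGN was 10.0. KLF1 had 2 and 5 UMIs and HEMGN 1 and 9 UMIs in other cells of replicates 1 and 2. GATA2, a factor of early blood progenitors, had no UMI in the erythroid cells and 308 and 382 UMIs in other cells. Against a floor of 3 UMIs over all erythroid cells it was at least 6.79-fold lower in erythroid cells in CPM, and at least 2.19-fold lower with TMM scaling (edgeR adjusted p = 0.0149, and 0.0505 with DESeq2).

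Of 15 genes known from human and mouse to act in the change between embryonic, fetal and adult globins, 2 were higher in erythroid cells (KLF1 and ZBTB7A), 9 were lower and 4 did not pass, beside 12.0% of all genes higher and 20.7% lower. The median log2 difference was -1.63, against -0.82 over all genes tested. With library totals 1 was higher and 12 were lower, on a scale that has 62.5% of all genes lower, and ZBTB7A, a repressor of fetal globin, lost its call (1.34 with TMM, -0.25 with library totals). Other cells are a mixture of many types.

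The 5 of these with most UMIs were lower in erythroid cells. Other cells hold nearly all UMIs, so choosing by total UMIs favours genes that are high there. IGF2BP2, an RNA-binding protein, had 6.86 ± 3.46 CPM in erythroid cells and 715 ± 51.2 CPM in other cells (SD, n = 2; log2 -4.87, SE 0.35, edgeR adjusted p = 6.25e-41). Its relative IGF2BP3 differed by -2.89, and LIN28B, an RNA-binding protein that keeps fetal globin on in human cells, by -1.93. SOX6, a repressor of mouse epsilon globin, had 3 and 19 UMIs in erythroid cells, or 24.3 ± 15.7 CPM, and 259.8 ± 16.9 CPM in other cells (SD, n = 2; log2 -1.63, SE 0.34, edgeR adjusted p = 1.58e-05). CHD4, a chromatin remodeller, differed by -1.14. Without replicate 2 the differences of SOX6, CHD4 and IGF2BP2 were -2.87, -2.39 and -6.05. Without the 2 cells of most HBG UMIs that of SOX6 was -2.52. BCL11A, a repressor of fetal globin in human cells, had 1 and 0 UMIs in erythroid cells, against 1081 and 1410 in other cells. BCL11A was named after its values were seen.

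Genes were ranked by how much of their RNA lay in the erythroid cells, as the lower of the replicates' shares, among 1641 genes with 10 or more UMIs in erythroid cells of each replicate. HBM (94.1%), HBE1 (93.7%), HBZ (93.2%) and HBE4 (91.9%) had nearly all their UMIs there, from 28 cells. HBE2 had 70.8% and HBQ1 had 19.0%. Among the other genes most like the globins in this were LOC100847469 (95.4%), KEL (94.7%), SSX5 (94.0%), KLF1 (93.5%), KCNN4 (92.9%), HEMGN (92.0%), ALAS2 (90.8%) and GATA1 (86.8%). In all, 27 genes had 50% or more.

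Relative to HBZ, these 8 genes had between 0.159 and 2.05 UMIs per 1000 HBZ UMIs in erythroid cells, and between 0 and 3.29 in other cells. LOC100847469 had 2.05 and 1.97 UMIs per 1000 HBZ UMIs in erythroid cells, against 1.36 and 1.97 in other cells. ALAS2 had 1.78 and 1.84 in erythroid cells, against 2.49 and 3.29 in other cells. HBQ1 had 0.198 and 0.152 in erythroid cells, against 11.5 and 12.5 in other cells. These ratios are descriptions, since each of the 8 genes had at most 20 UMIs in the other cells of a replicate. The 8 genes were also chosen for a high share of UMIs in erythroid cells, as HBZ has. Ratios to HBZ that are close in both classes follow from that choice, so setting HBQ1 beside them is no test.

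**Figure D5:**
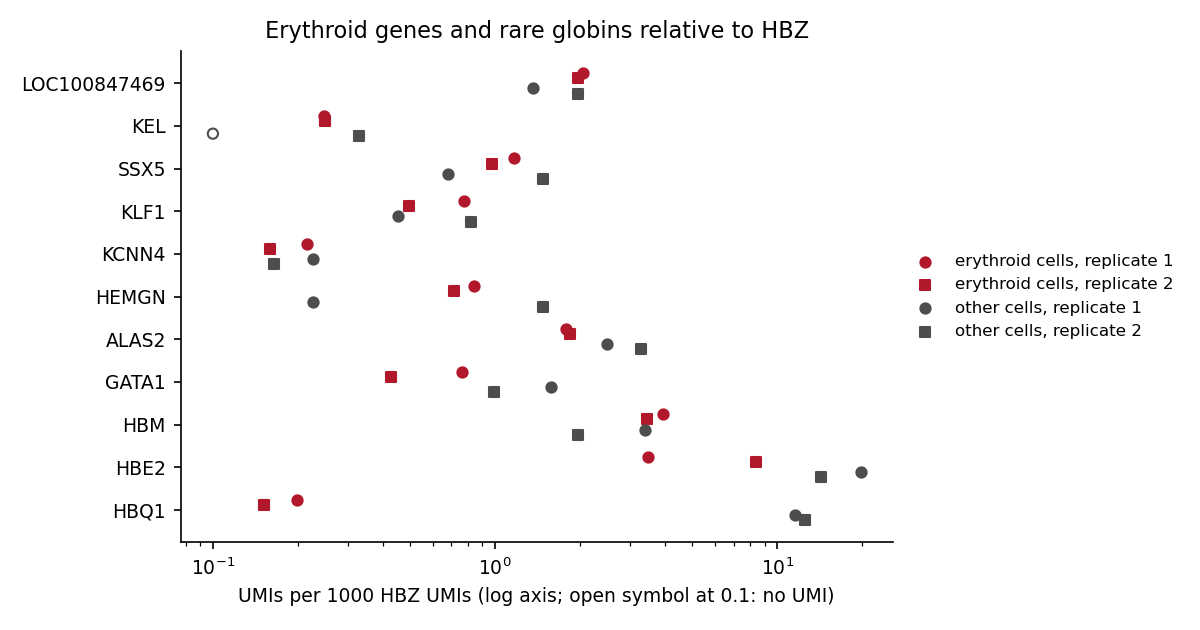
UMIs per 1000 HBZ UMIs (x axis, log scale) of 8 genes most like the globins and of HBM, HBE2 and HBQ1, in erythroid (red, upper of each pair) and other (grey) cells of replicates 1 (circles) and 2 (squares). An open symbol at 0.1 marks no UMI. HBQ1 has 0.198 and 0.152 in erythroid cells and 11.5 and 12.5 in other cells. The 8 genes were chosen by their share of UMIs in erythroid cells, so close values in both classes follow from the choice.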

How the data were processed

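The authors deposited a table of raw UMI counts, genes by cells, which they had not normalized. Per the submitters' processing notes, the tools were Cell Ranger, Seurat 4.3.0 and R 4.1.2, with genome build bosTau9. Cell Ranger's version, the gene models and any removal of doublets or free RNA were not given in the sources used here. No doublet caller and no correction for free RNA were run here, and all 4437 deposited cells were kept. The chi-square statistic between the gene totals of the replicates was 14.7 per degree of freedom over 15260 genes, so they are not 1 library deposited again.

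Counts were summed per class and replicate and fitted with edgeR 4.0.16 (R 4.3.3; TMM, filterByExpr with a minimum count of 10 and total of 15, robust quasi-likelihood test, replicate as a block, 1 residual degree of freedom, Benjamini-Hochberg adjustment at 0.05). Replicates pair the sums because both classes of a number come from 1 suspension. edgeR also weighs in a spread pooled over genes, by prior degrees of freedom. Their median was infinite in the erythroid fits on both scales and 13.8 in the ribosomal fit. Most p-values and intervals of the erythroid fits thus rest on the pooled spread and little on a gene's own spread between replicates. For the make-up of globin RNA the offset was the log of the UMIs of the 8 globins other than HBZ. DESeq2 1.42.0, other scalings, thresholds and filters, and leaving out a replicate were alternatives. Shares have exact binomial (Clopper-Pearson) and counts exact Poisson intervals at 95%.

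The fits were tested on simulated data: with 4-fold changes in 200 genes, 72.0% were recovered in the erythroid contrast over 13208 genes, 54.0% on its globin scale and 99.5% in the ribosomal contrast over 13560 genes. The simulated sums shared 1 mean gene profile and 1 fixed dispersion. They lack the globin excess of the erythroid class and its gap in TMM factors, so they do not test the fits in that setting. The members, lists and thresholds were chosen with earlier results of these data known. Genes named were all members and HBG, the 10 of the erythroid list with the largest called differences of 1 direction in both replicates, the 5 of the globin switch list with most UMIs, and the 10 genes most like the globins; some of them are not reported here. Symbols were matched to RefSeq (17337 of 17846) for names and neighbours.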

Additional observations from a re-analysis of the deposited data

How the results depend on the processing

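Raising the erythroid threshold to 1000 HBZ UMIs picks the same cells. The 3 globins called on level became 5 of the same 5 tested with DESeq2, without the replicate block and with library totals (chosen after seeing the data). With no filter on low counts they became 5 of 8, HBA and HBA1 being added. The 2 called on the globin scale became 1 with DESeq2 and 3 of 8 with no filter, HBB being added. With no filter 97.1% of all genes were lower on that scale. The 1 called in the ribosomal contrast became 2 at 5%, 0 at 20%, 0 with DESeq2 and 4 with library totals. In that contrast the log2 differences turned to -0.09, -0.01 and -0.0037 for HBE1 (5%, 20%, other cells of 50 or more HBZ UMIs left out), -0.19 and -0.31 for HBE2 (5%, 20%) and 0.05 for HBQ1 (5%), and with library totals to 0.45 for HBZ, 0.55 for HBE4 and 0.47 for HBQ1; the cause was not tested. At 0 calls by DESeq2, HBZ had an adjusted p of 0.0566, and at 20% edgeR gave 0.128.

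The globin share of UMIs in other cells (0.0748%) was 0.0729% with 200 HBZ UMIs as threshold, 0.0727% with cells chosen by 4 or more markers, 0.0697% without other cells of 50 or more HBZ UMIs and 0.0742% with cells of 500 or more detected genes. With 3 or more markers per gate, mean globin CPM were 656 in the neural progenitor, 619.5 in the neuron and 928 in no gate. Leaving out a replicate leaves no residual degrees of freedom, so no test or count could be given. The values then ran from 0.0745 to 0.0751% for the globin share, from 53.5 to 55.2% for the alpha-like share, and over 677 to 729.6, 640.0 to 662, 488 to 629.7 and 938 to 966 CPM for the neural progenitor, neuron and mesenchyme gates and no gate. HBA, HBA1 and HBB rest on 3, 9 and 17 UMIs in all, so their values hang on few molecules.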

Other observations

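The table has a GFP row, and which cells carried GFP is not stated in the labels. GFP had 10 and 14 UMIs in erythroid cells of replicates 1 and 2, or 44.2 and 26.1 CPM, against 1659.5 and 1849 CPM in other cells. At least 1 GFP UMI was found in 6 of 9 and 11 of 19 erythroid cells, against 1485 of 1964 and 1852 of 2445 other cells. Median depth was 27366 and 26933 UMIs in the erythroid cells and 4876.5 and 5542 UMIs in the other cells, and the part of free GFP RNA in these shares was not tested.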
